A study of Mus musculus with 6 samples.

Results

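Bone marrow-derived macrophages without the cohesin subunit RAD21 were compared after 8 h of LPS and without treatment, over all genes, in single cells. The 489 cells were all those named as Rad21-deficient in the 8 h sample (222 cells) or in the untreated sample (267 cells), after leaving out wells with more than 25000 unique molecular identifiers (UMIs, tags that count each captured transcript once). They make up 489 of the 1362 cells of the series, which also holds a Rad21-deficient sample at 2 h and wild-type samples at the same times. Every group carried Rosa26 creERT2/creERT2, a Cre recombinase expressed from the Rosa26 locus and switched on by tamoxifen, and every group received 200 nM of 4-hydroxytamoxifen from 96 h of culture. The Rad21-deficient cells were Rad21 lox/lox and lost the gene in culture (Rad21-/- below), and the wild-type cells were Rad21 WT/WT, on a mixed strain background. Macrophages were used on day 7, and LPS was given at 10 ng/ml. The sources used here do not state how many animals or cultures stand behind a sample. Each genotype and time point was 1 sample, so no difference below has a replicate check, no test was run, and every interval is a 95% interval for counting error alone.

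LPS is a cell wall lipid of Gram-negative bacteria that macrophages recognise through TLR4 with CD14. TLR4 signals through MyD88 to NF-kappaB and through TRIF to interferon-beta, which is secreted and then induces a wave of interferon-stimulated genes through JAK kinases, STAT factors and IRF9. The late response therefore mixes cytokines and chemokines, feedback inhibitors, antiviral effectors and metabolic enzymes. Cohesin is the ring-shaped complex that holds sister chromatids together and forms chromatin loops, and RAD21 closes the ring.

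Rad21 itself had 9 UMIs in the untreated and 12 in the 8 h Rad21-/- cells, or 5.46 and 6.92 CPM (UMIs of a gene per 1000000 UMIs of a sample), against 64.3 and 34.1 CPM in the wild-type samples. This goes with the genotype on the labels, although the tags count transcript ends and the position of the deleted part relative to them is not given in the sources used here. The untreated cells held 1647811 UMIs and the 8 h cells 1734640, with medians of 5544 and 7043 UMIs and of 2536 and 3154 genes per cell. The 2 samples lay in different library pools, and no doublet caller was run on these singly sorted cells. Macrophage markers summed to 6214 CPM untreated and 6306 CPM at 8 h over the 8 of 9 markers in the matrix. This sum combines markers that went in opposite directions, with Cd14 and Adgre1 higher and Csf1r lower at 8 h, as given below. Neutrophil markers moved from 1 UMI to 23 UMIs over the 2 of 10 in the matrix, and B cell (198 and 191 CPM), T or NK cell (35.8 and 40.9), mast cell (61.9 and 58.8) and fibroblast markers (15.2 and 15.6) were close between the samples. Dendritic cell markers went from 680 to 1072 CPM over 5 of 8 markers. The interferon-stimulated gene Bst2 held most of both sums, at 636 CPM untreated and 1039 CPM at 8 h. None of the 7 erythroid markers was in the matrix. Mitochondrial transcripts held 6.91% of UMIs untreated and 4.80% at 8 h. Each library pool held a single time point, so pool and LPS cannot be told apart, and pools are not replicates of the culture.

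Of the 18429 genes, 5775 had at least 100 UMIs over both samples and were compared as the log2 ratio of summed CPM, 8 h over untreated, with 1 UMI added to each sum. Their median log2 ratio was 0.0034. A gene with few UMIs in 1 sample passed this limit only through the other sample. The counts of higher and lower genes in the lists below are therefore partly set by the limit. At 8 h, 442 genes (7.65%) were at least 2-fold higher and 291 (5.04%) at least 2-fold lower, while at 4-fold the counts were 174 (3.01%) and 46 (0.797%). The log2 ratios ran from -4.29 for Rab3il1 to 11.38 for Il1b, and for Il1b and the other genes with few or no untreated UMIs the ratio depends on the UMI added. Single numbers in brackets after a gene are its log2 ratio, and intervals are those of the log2 ratio. The 442 higher genes held 2.11% of all UMIs in untreated cells and 10.95% at 8 h, and the 291 lower genes went from 4.09% to 1.55%. Among pools of at least 10 cells (8 untreated, 6 at 8 h), all 8 h pools lay above all untreated pools for 329 genes (5.7%) and below them for 182 (3.15%). Of the 442 higher genes 291 (65.8%) had pools that did not overlap, and of the 291 lower genes 45.4%. At the edge of the 2-fold limit lay Psmd11 (0.9999) on the upper side and Npc1 (-1.0012) and Slc48a1 (-0.9995) on the lower.

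**Figure D1:**
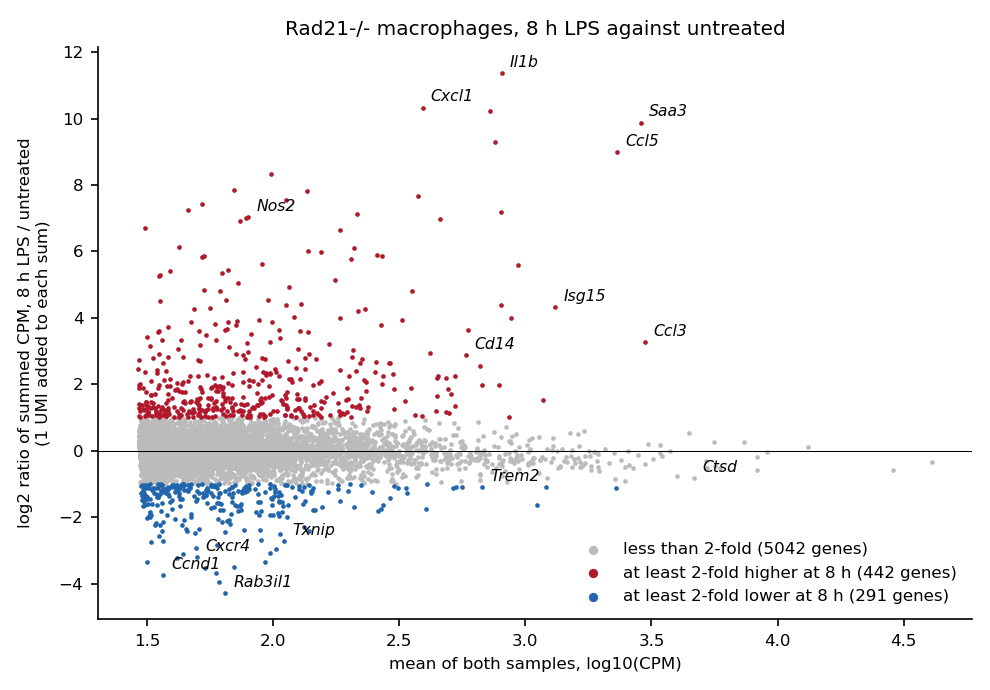
The log2 ratio of summed CPM (8 h LPS over untreated, 1 UMI added to each sum) of 5775 genes against the log10 of their mean CPM over both samples, each point 1 gene. The 442 genes in red reach 11.38 (Il1b), and the 291 in blue reach -4.29 (Rab3il1).

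Cytokine and chemokine genes were prominent among the largest differences. All 5 CXC chemokines with enough UMIs (5 of 7 in the matrix) were at least 2-fold higher, with a median log2 ratio of 6.97, against 7.65% of all genes compared and an overall median of 0.0034. Cxcl1, which draws neutrophils through CXCR2, had no UMI in 267 untreated cells and 1357 at 8 h, and was at least 429.7-fold higher when 3 UMIs are taken as the limit for the untreated sample. Cxcl2, a neutrophil chemokine of the same cluster on chromosome 5, had 3 and 2633 UMIs, a log2 ratio with an interval of 8.15 to 11.98. Cxcl3 had 2 and 183 UMIs (4.57 to 9.50). Cxcl10, which draws T cells through CXCR3, went from 6.68 to 911 CPM (6.97), but its 11 untreated UMIs lay in 1.50% of cells and without the largest cell of each sample the log2 ratio was 8.48. Cxcl16, a membrane-anchored chemokine, had a log2 ratio of 3.38.

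The promoters of these and of the leading interferon-stimulated genes are shown because they hold the letters that NF-kappaB and interferon-activated factors (the core of the interferon-stimulated response element, ISRE) are known to bind. Each line gives 80 bases upstream of the start from RefSeq's promoter table for GRCm38.p6, read 5′ to 3′ on the strand of the gene. Only the first match found is in capitals. Further ISRE matches follow in lower case in Ifit1 and in Isg15, where the next one overlaps the capitals. Matches were sought on both strands, so the ISRE of Rsad2 and Ifit1 appears as its reverse complement.
Cxcl1 (chr5:90891139-90891218, plus strand): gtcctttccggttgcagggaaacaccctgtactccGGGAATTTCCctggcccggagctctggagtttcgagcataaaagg
Cxcl2 (chr5:90903767-90903846, plus strand): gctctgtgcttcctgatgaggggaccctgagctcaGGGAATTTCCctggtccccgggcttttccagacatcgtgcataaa
Cxcl10 (chr5:92349004-92349083, minus strand): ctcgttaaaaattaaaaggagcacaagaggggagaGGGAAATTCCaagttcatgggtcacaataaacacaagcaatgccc
Isg15 (chr4:156200852-156200931, minus strand): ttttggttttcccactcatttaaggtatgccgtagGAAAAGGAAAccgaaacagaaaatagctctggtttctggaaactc
Rsad2 (chr12:26456528-26456607, minus strand): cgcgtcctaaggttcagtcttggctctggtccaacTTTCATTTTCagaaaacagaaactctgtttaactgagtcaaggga
Ifit1 (chr19:34640750-34640829, plus strand): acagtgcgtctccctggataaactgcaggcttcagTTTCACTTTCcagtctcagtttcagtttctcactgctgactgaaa
The 10-base NF-kappaB match of Cxcl1 and Cxcl2 has the same letters, at 62 to 71 bases before the start in Cxcl1 and 88 to 97 in Cxcl2. Of the 174 genes at least 4-fold higher, 75.3% were found in the table, with 157 windows of 300 bases. The NF-kappaB letters were in 7.64% of these windows and the ISRE letters in 12.7%, against 1.50% and 3.70% of the windows of all genes compared and 1.47% and 3.44% of all 32851 windows of the table. Neither was in any of the 45 windows of the 33 matched genes that were at least 4-fold lower. At the shares over all genes compared, so few windows would hold few or no matches. Among antiviral interferon-stimulated genes 51.4% of 35 windows held the ISRE letters. The AP-1 letters TGANTCA were in 15.3% of windows of the 4-fold higher genes and in 5.15% of those of all genes compared, and the GAS letters TTCNNNGAA, a STAT motif, in 9.55% and 6.28%. E2F letters (GCGGGAAA) were in 0.637% and 1.72% and sterol response letters (TCACNCCAC) in 1.27% and 1.33%. In the 45 windows of the 4-fold lower genes AP-1, GAS and sterol response letters were each in 4.44% and E2F letters in none. A match is a description of the letters and not of binding.

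Of the gene lists grouped by function, CC chemokines gained the most CPM. Of the 8 with enough UMIs 7 were at least 2-fold higher (median log2 ratio 4.996), and the summed level of all 12 in the matrix went from 955 to 15362 CPM. Ccl5, which draws T cells and monocytes, went from 8.50 to 4624 CPM (8.99, interval 8.34 to 9.96), and from 4.87% to 100% of cells. Its lowest, median and highest pools were 0, 6.32 and 28.2 CPM untreated and 3005, 4507 and 5307 CPM at 8 h, so no pools overlapped. Ccl3, which was already present in 71.5% of untreated cells, went from 558 to 5426 CPM (3.28). The monocyte chemokines Ccl2, Ccl7 and Ccl12 had log2 ratios of 5.59, 5.87 and 7.01, the last with 1 UMI untreated (interval 5.51 to 13.31). Ccl4 (4.40) and Ccl9 (2.56) were also higher, and Ccl6 was not past 2-fold (0.19).

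Of 11 cytokine genes compared 10 were at least 2-fold higher, with a median log2 ratio of 2.94. Il1b, the precursor of the pyrogenic cytokine IL-1beta, had no UMI untreated and 2795 at 8 h, or 1611 CPM in 95.9% of cells, and was at least 885-fold higher. None of the 8 untreated pools held an Il1b UMI, and the 6 pools at 8 h ran from 1279 to 1987 CPM. Tnf had 5 and 1293 UMIs (7.68). Il1rn, the secreted antagonist of the IL-1 receptor, went from 5.46 to 414 CPM (6.09). Il12b, the p40 subunit of IL-12 and IL-23, went from 2.43 to 122.8 CPM (5.35) in 1.50% to 25.7% of cells. The IL-27 subunits Il27 and Ebi3 had log2 ratios of 3.43 and 2.94, and the anti-inflammatory Il10 of 1.30. Tgfb1 was not past 2-fold (0.19). Il6 was outside the comparison with 4 and 84 UMIs.

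Interferon-beta transcripts were not seen at either time, while most of the interferon-stimulated genes were higher. Ifnb1 had 0 UMIs in both samples, which allows up to 1.12% of untreated and 1.35% of 8 h cells to hold a UMI, and 1.60 CPM at 2 h. Of 36 antiviral interferon-stimulated genes compared (42 in the matrix), 33 were at least 2-fold higher and 0 lower, with a median log2 ratio of 2.35. Their summed level went from 1961 to 8816 CPM. Isg15, a ubiquitin-like modifier, had the largest level and went from 125 to 2503 CPM (4.32), with pools at 78.8, 115.6 and 196 CPM untreated and 2167, 2519 and 2935 CPM at 8 h (lowest, median and highest), so none overlapped. Ifi205, a HIN-200 family gene, had 2 and 133 UMIs (interval 4.10 to 9.04). Isg20, an exonuclease, went from 3.64 to 119 CPM (4.82), and Rsad2, which encodes viperin, from 22.5 to 442 CPM (4.26). Ifit1, which binds viral RNA ends, went from 9.10 to 119.9 CPM (3.63), and Ifit2 and Ifit3 had log2 ratios of 3.61 and 2.90. The RNA sensors Ifih1 and Ddx58 differed more from each other, at 3.11 and 1.44. Bst2 (0.71), Samhd1 (0.87) and Eif2ak2 (0.40) were the 3 that did not reach 2-fold. The oligoadenylate synthetases Oas3 (2.02), Oas1a (1.30) and Oas1g (1.45) were higher. Oas1a and Oas1g are near-identical, and only unambiguously mapped reads were counted, so their split is uncertain.

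Guanylate-binding proteins and immunity-related GTPases, which attack the vacuoles of intracellular pathogens, were higher in 7 of 8 (median log2 ratio 2.84). The median was 3.51 without the untreated pool 2326 or 2330 and 3.62 with the deep wells kept. Gbp3 went from 9.10 to 342 CPM (5.14) and Gbp2 from 6.68 to 224 CPM (4.94). Gbp5 had 4 and 119 UMIs (4.51) and Gbp7 a log2 ratio of 3.33. These genes lie in clusters of similar copies, which makes single members uncertain. Irgm1 stood just under the limit at 0.998.

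Among IRF and STAT transcription factors 4 of 10 were at least 2-fold higher (median 0.34), among them Irf1 (1.91), Irf7 (1.59) and Stat2 (1.28), while Irf9 (0.12), Irf8 (-0.21), Irf5 (0.19) and Stat3 (0.28) stayed under 2-fold. Of the interferon receptor genes, Ifngr2 went from 96.5 to 264 CPM (1.45) and Ifnar2 had 0.015, the only 2 of 5 compared. Among 5 JAK and SOCS genes 3 were higher (median 2.38). Socs3, which blocks cytokine receptors that use gp130, had 1 and 255 UMIs (interval 5.43 to 13.23), Jak2 a log2 ratio of 2.40 and Usp18, which removes ISG15 and dampens the interferon receptor, of 2.38. Tyk2 was at 0.63.

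NF-kappaB subunits and their feedback inhibitors were higher in 13 of 15 (median 2.24). Tnfaip3, which encodes the ubiquitin-editing inhibitor A20, went from 3.64 to 141 CPM (5.06), and Tnip3, an A20-binding protein, from 23.7 to 684 CPM (4.82). Nfkbia, which encodes IkappaB-alpha, went from 88.0 to 1099 CPM (3.63) and Nfkbiz from 4.85 to 126 CPM (4.53). The subunits themselves had smaller ratios, from 0.62 for Rela, 1.08 for Rel, 1.49 for Relb and 1.54 for Nfkb1 to 2.75 for Nfkb2. Immediate-early genes were higher in 5 of the 8 compared (median 1.38), among them Ier3 (3.64), Atf3 (2.13), Zfp36 (1.87) and Klf6 (1.39), and 8 of 21 in the matrix had enough UMIs. Egr2 had 1 UMI and 0 UMIs. At 2 h the levels of Nfkbiz, Atf3 and Zfp36 were 524, 319 and 298 CPM, above both their untreated and their 8 h values of 126, 148.2 and 81.3 CPM.

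Genes of the LPS recognition list, which also holds signalling genes and other receptors such as Tlr7 and Tlr13, went in both directions. Of 9 compared 5 were at least 2-fold higher and 1 lower (median 1.37). With the deep wells kept 10 genes had enough UMIs, and their median was 0.73. Cd14 went from 139 to 1026 CPM (2.88) and from 47.6% to 98.2% of cells. Irak2 (2.73), Tlr2 (2.14), Myd88 (1.37) and Aoah (1.75), the lipase that inactivates LPS, were also higher. Tlr4 itself went from 53.4 to 21.9 CPM (-1.26, interval -1.87 to -0.72). Tlr7 (-0.83) and Tlr13 (-0.93) stayed short of 2-fold.

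**Figure D2:**
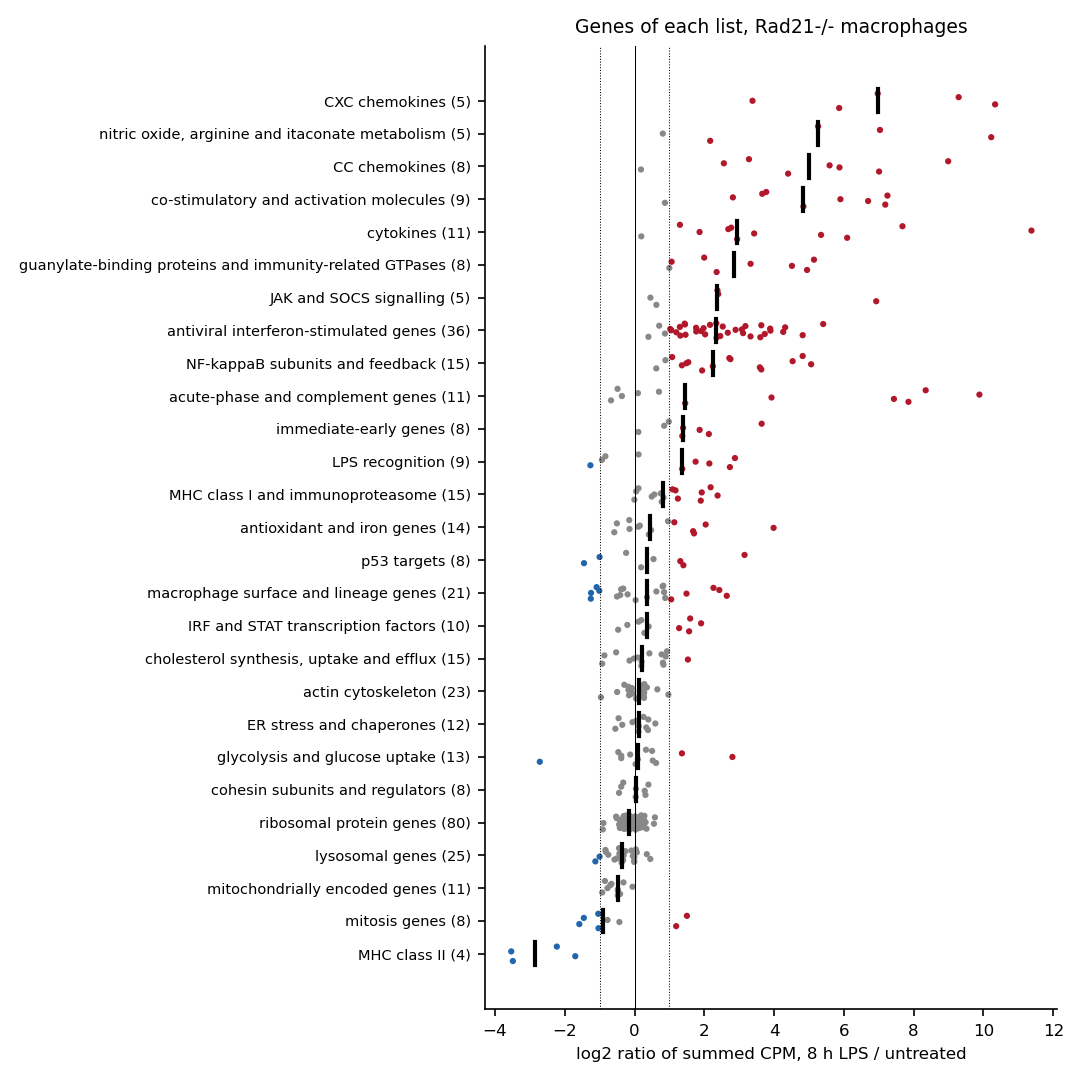
The log2 ratio of summed CPM, 8 h LPS over untreated, of each gene compared, grouped by gene list, with the number of genes in brackets and the list median as a black bar; lists with fewer than 4 genes are left out. CXC chemokines have the highest median (6.97) and MHC class II the lowest (-2.86), and dotted lines mark 2-fold.

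Several acute-phase and complement genes had few or no UMIs without LPS. Saa3, an acute-phase apolipoprotein, was the gene with the largest gain and went from 5.46 to 5731 CPM (9.88), with all 222 cells positive at 8 h. Its 9 untreated UMIs lay in 2 of the 8 pools. Without the untreated pool 2324 its log2 ratio was 11.85. At 2 h it stood at 50.5 CPM. Saa2 and Lcn2, which sequesters bacterial siderophores, had no UMI untreated and 242 and 341 at 8 h, at least 76.6-fold and 107.98-fold higher. Cfb, the protease of the alternative complement pathway, had none and 181 (at least 57.3-fold), and C3 had a log2 ratio of 3.93. By contrast the C1q chains C1qa (-0.36), C1qb (-0.49) and C1qc (-0.67) were between the limits. Of 11 acute-phase and complement genes compared 6 were higher (median 1.45). With the deep wells kept 12 genes had enough UMIs, and their median was 2.68.

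In the metabolism of arginine and itaconate 4 of 5 genes were higher (median 5.26). The median of this small list ran up to 7.10 when single pools were left out, with 6.65 without the untreated pool 2326 and 6.21 to 7.10 without each of 4 of the 8 h pools. Irg1 (Acod1), which makes the antibacterial metabolite itaconate, had 1 UMI untreated and 2514 at 8 h, when 99.1% of cells were positive (interval 8.74 to 16.53). Nos2, the inducible nitric oxide synthase, had 1 and 275 UMIs (5.54 to 13.34) and stood at 0.801 CPM at 2 h. The arginine carrier Slc7a2 had 2 and 120 UMIs (3.95 to 8.89), and Gch1, which makes the NOS cofactor tetrahydrobiopterin, went from 42.5 to 193 CPM (2.17). Slc7a11, the cystine carrier, was at 0.81.

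Co-stimulatory and activation molecules were higher in 8 of 9 (median 4.84). Clec4e, the mycobacterial glycolipid receptor Mincle, went from 10.3 to 1590.0 CPM (7.19) and from 5.24% to 95.9% of cells. Ptgs2, the inducible cyclooxygenase, and the early lymphoid activation marker Cd69 had no UMI untreated and 91.7 and 62.3 CPM at 8 h, at least 50.3-fold and 34.2-fold higher. At 2 h Cd69 was at 136.98 CPM. Marcksl1, an actin-binding substrate of protein kinase C, went from 7.89 to 507 CPM (5.90). The ligand of PD-1, Cd274, had a log2 ratio of 4.84, Cd40 of 3.77 and Icam1 of 2.82. Outside the lists, Gpr84, a receptor for medium-chain fatty acids, had 1 and 391 UMIs (interval 6.05 to 13.84). The anti-apoptotic Bcl2a1a and Bcl2a1d had 1 and 472 and 4 and 740 UMIs, with an uncertain split since the copies of this gene are near-identical.

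Antigen presentation differed between the 2 MHC classes. Of 15 class I and immunoproteasome genes 7 were higher (median 0.83), mainly those that cut and carry peptides. Psmb10, an immunoproteasome subunit, went from 81.3 to 426 CPM (2.38), the proteasome activator Psme2 from 175 to 797 CPM (2.18), and the peptide transporters Tap1 and Tap2 had log2 ratios of 1.90 and 1.93. The heavy chains H2-K1 (0.49) and H2-D1 (0.047) and the light chain B2m (-0.0041) were not past 2-fold.

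All 4 MHC class II genes compared were lower (median -2.86), but this rested on few untreated cells. H2-Eb1 went from 99.5 to 8.07 CPM (-3.53), H2-Aa from 128.7 to 10.95 CPM (-3.49), H2-Ab1 from 72.2 to 14.99 CPM (-2.23) and Cd74, the invariant chain, from 319 to 98.003 CPM (-1.70). The 7 class II genes of the matrix had 1085 UMIs in the 267 untreated cells, of which 84.8% lay in 5 cells and 463 in a single cell. At 8 h they had 281 UMIs, of which 40.9% lay in 5 cells. In cells with fewer than 10 class II UMIs the level was 91.6 CPM untreated and 97.6 CPM at 8 h, and 37.1% and 47.7% of all cells had at least 1. This cut uses the same UMIs that are compared, so it caps the level in both samples, and the 8 h cells were deeper. H2-Aa was found in 6.37% to 4.50% of cells and Cd74 in 23.2% to 27.0%. The pools overlapped for all 4 genes, with Cd74 at 33.8, 159.8 and 1181 CPM untreated and 28.9, 66.7 and 178.98 CPM at 8 h (lowest, median and highest). The median of the list was -1.88 without the untreated pool 2330 and -1.38, over 5 genes instead of 4, with the deep wells kept. The part of other cell types in this difference was not tested.

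**Figure D3:**
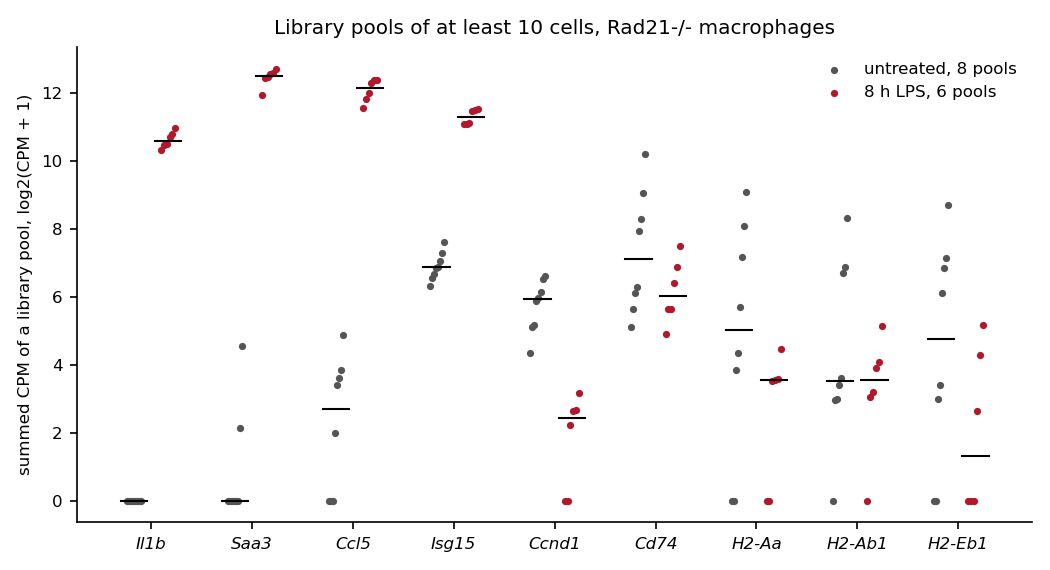
Summed CPM of each library pool with at least 10 cells, on a log2(CPM + 1) axis, in untreated (8 pools, grey) and 8 h LPS (6 pools, red) Rad21-/- cells, with the median as a bar. Pools do not overlap for Il1b, Saa3, Ccl5, Isg15 and Ccnd1, and they overlap for the 4 MHC class II genes, whose untreated pools spread over a wide range.

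Macrophage identity genes went both ways, with 5 higher and 4 lower of 21 (median 0.36). The scavenger receptor Msr1 went from 80.1 to 504 CPM (2.64), the transcription factor Cebpb from 57.05 to 310.2 CPM (2.43), the lectin Clec4a1 from 68.6 to 331 CPM (2.26) and Adgre1, which encodes F4/80, from 175 to 492 CPM (1.49). Spi1, which encodes PU.1, was just past the limit (1.05). On the lower side were the mannose receptor Mrc1 (-1.25), the transcription factor Maf (-1.25), the lipid receptor Trem2 (-1.09) and the Fc receptor Fcgr3 (-1.01). Trem2 pools lay at 812, 960.2 and 1056 CPM untreated and 391, 428 and 471 CPM at 8 h, without overlap. The receptor for the growth factor CSF1, Csf1r, was at -0.50.

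Lysosomal genes, among the most abundant of these cells, mostly lay under the limit. Of 25 compared 2 were at least 2-fold lower, against 5.04% of all genes compared. The median of the list was -0.37, and its summed level went from 33896 to 24751 CPM. The acid lipase Lipa went from 460.0 to 211 CPM (-1.12) and the cholesterol exporter Npc1 from 81.3 to 40.4 CPM (-1.001), and both were short of 2-fold under some other settings. The proteases Ctsd and Ctsb had 5949 and 6920.1 CPM untreated and 3362 and 4865 CPM at 8 h (-0.82 and -0.51), and Psap was at -0.83.

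In cholesterol metabolism 1 of 15 genes was at least 2-fold higher, against 7.65% of all genes compared, and none lower (median 0.20). The synthesis genes Hmgcs1 (0.93) and Cyp51 (0.89) and the exporter Abca1 (-0.93) lay short of it. In glycolysis 2 of 13 genes were higher, the hexokinase Hk2 (2.81) and the glucose carrier Slc2a1 (1.36), and 1 was lower, Txnip, which restrains glucose uptake, from 192 to 28.8 CPM (-2.71, median of the list 0.095). Pgk1 (0.62) and Ldha (-0.12) were between. Among antioxidant and iron genes 5 of 14 were higher (median 0.44), with the mitochondrial superoxide dismutase Sod2 from 103 to 1644 CPM (3.99), the glutathione reductase Gsr (2.04), Sqstm1 (1.71), Txnrd1 (1.68) and Gclm (1.14). Iron storage showed little difference in Fth1 (0.11), and Ftl1 went from 9947 to 6656 CPM (-0.58).

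Housekeeping groups stayed between the limits. None of 12 ER stress and chaperone genes (median 0.12), 23 actin cytoskeleton genes (0.14), 8 cohesin genes (0.035), 11 mitochondrially encoded genes (-0.48) or 80 ribosomal protein genes (-0.15) passed 2-fold either way. Of all 5775 genes compared 5042 also lay between the limits, so for the smaller of these lists this is near the common case. The widest members were Hspa5 (0.60) and Ddit3 (-0.55) among the chaperones and stress factors, Capza2 (0.97) and Coro1a (-0.96) in the cytoskeleton, and Pds5b (-0.44) and Wapl (0.40), which regulate cohesin on DNA. Mitochondrial mRNAs were lower within these limits, with mt-Cytb at -0.93, mt-Nd4 at -0.85, mt-Nd1 at -0.78 and mt-Nd2 at -0.70. By CPM lost, the mitochondrial rRNA mt-Rnr2 (34437 to 22881 CPM), Gm42418 (45769.8 to 36311 CPM), Ftl1, Ctsd, mt-Nd1, Ctsb, Spp1, which encodes osteopontin (6166 to 4316 CPM), and Gm22133 (6501 to 4766 CPM) led, none of them past 2-fold. By CPM gained, Saa3, Ccl3, Ccl5, Isg15, Ccl2, Gm6977 (3657 to 5291 CPM, 0.53), Il1b and Clec4e led.

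The largest falls were in signalling and transport genes that many untreated cells expressed. Rab3il1, which binds the vesicle GTPase Rab3A, went from 123.2 to 5.76 CPM (-4.29, interval -5.50 to -3.51) and from 52.1% to 4.05% of cells, or 38.9% to 1.50% after thinning each cell to 3900 UMIs. Hpgd, which degrades prostaglandins, went from 111 to 8.07 CPM (-3.69), opposite to Ptgs2, which makes their precursor. The Ras activator Rasgrp3 went from 169.3 to 16.1 CPM (-3.35), ceramide kinase (Cerk) from 174 to 20.2 CPM (-3.07) and Cnrip1, which binds a cannabinoid receptor, from 181 to 23.1 CPM (-2.95). Of receptors, Cxcr4, for CXCL12, went from 90.4 to 9.22 CPM (-3.22), Cd28, known as a co-stimulatory receptor of T cells, from 75.9 to 7.49 CPM (-3.24) and the membrane progestin receptor Paqr7 from 57.7 to 8.07 CPM (-2.75). T or NK cell markers summed to 35.8 CPM untreated and 40.9 CPM at 8 h, and Cd28 was found in 31.8% to 5.41% of cells. The eIF4E kinase Mknk2 (-3.11), the GTPase-activating protein Hmha1 (-2.82), the sugar phosphate carrier family member Slc37a2 (-2.69), the clock-controlled transcription factor Dbp (-2.71), Bmyc (-3.35) and Sepch9 (-2.56, spelled as in the matrix) were also among the falls of this size. One of the 20 largest falls came from a single well: 4933404O12Rik had a log2 ratio of -3.94, but -0.74 without the largest cell of each sample and -0.41 without the untreated pool 2327. For the other falls named here outside MHC class II the largest untreated cell held at most 7.96% of the UMIs.

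Cell cycle genes were sparse. Ccnd1, the G1 cyclin that CSF1 induces, went from 68.6 to 4.61 CPM (-3.74) and from 27.3% to 3.15% of cells, with pools at 19.4, 59.7 and 97.1 CPM untreated and 0, 4.46 and 7.91 CPM at 8 h (lowest, median and highest), without overlap. Of 32 mitosis genes 8 had enough UMIs, 4 lower and 2 higher (median -0.90). The median turned to 1.18 without the untreated pool 2324, when only 3 of these genes had enough UMIs. Lower were Stmn1 (-1.58), Top2a (-1.45), Mki67 (-1.04) and Hmgb2 (-1.03), and higher were Pttg1, which encodes securin (1.50), and the ubiquitin-conjugating enzyme Ube2s (1.19). Of 24 replication genes only 2 could be compared, Pcna (-0.31) and Slbp (0.029). Among 8 p53 targets 3 were higher and 2 lower (median 0.37), with Fas (3.15), Mdm2 (1.40) and Gdf15 (1.31) above and Sesn1 (-1.45) and Ccng1, just past the limit (-1.002), below, while Cdkn1a was at 0.54.

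Most of the higher genes differed in how many cells held at least 1 UMI of them. The log2 ratio of mean CPM over cells was split into the log2 ratio of the share of cells with at least 1 UMI and that of the mean CPM per positive cell, which add up. The share contributed a median of 1.48 and the level per positive cell 0.19 over the 435 higher genes seen in both samples, and in 403 of these the share contributed more. Their median share went from 14.6% to 50.9% of cells, while the median over all genes compared went from 27.3% to 34.7%. Since 8 h cells were deeper, each cell was also thinned to 3900 UMIs, which left out 51 untreated and 22 8 h cells and brought the median over all genes to 19.4% and 20.5%. The parts were then 1.41 and 0.25. At few UMIs per cell a higher level alone also raises the share of cells with at least 1 UMI, and thinning does not remove this. The split, here and for the lists and classes below, therefore cannot separate more expressing cells from more transcripts per cell. Of 127 higher genes found in at most 10% of untreated cells, 49 reached at least 50% of cells at 8 h. Of the same 127 genes, 7 reached at least 90%. Genes this rare in untreated cells passed the limit on UMIs largely through the 8 h sample, and they were also picked as higher. Large shares at 8 h are therefore partly built into these counts, and no matching counts over all genes compared are given. For the 291 lower genes the median share part was -0.73 and the level part -0.65, and after thinning they were -1.14 and -0.23, so this split depended on depth. A difference of 20 percentage points in the share of cells was reached upwards by 565 genes (9.78%) and downwards by 85 (1.47%).

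CC chemokines had medians of 2.23 for the share and 1.96 for the level, the highest level part among the lists. For CXC chemokines the parts were 5.60 and 1.23, for arginine and itaconate genes 5.05 and 1.14, for co-stimulatory molecules 3.25 and 0.96, for antiviral interferon-stimulated genes 1.80 and 0.21, for guanylate-binding proteins 2.53 and 0.14, and for NF-kappaB genes 1.68 and 0.34. MHC class II had 0.069 and -2.60, where the level part rests on the 5 untreated cells that held 84.8% of these UMIs. Single genes showed the same range. Saa3 went from 2.62% to 100% of cells (1.85% to 100% thinned), Cxcl2 from 1.12% to 94.1% (0.926% to 85.5% thinned) and Tnf from 1.87% to 88.3% (0.926% to 84% thinned), while Nos2, Lcn2 and Saa2 were found in 52.7%, 50.9% and 35.1% of cells at 8 h. Il12b reached 25.7% and Cxcl3 28.4%. Summed over a list in each cell, antiviral interferon-stimulated genes had a median of 8145 CPM at 8 h (10th to 90th percentile 5805 to 11714) against 1817 CPM untreated (987 to 3284). All 222 cells at 8 h lay above the 90th percentile of untreated cells for this list and 68.0% above the untreated maximum. The share above the untreated maximum was 96.4% for CC chemokines, 61.7% for CXC chemokines, 28.8% for guanylate-binding proteins, 19.8% for acute-phase and complement genes and 1.35% for MHC class I genes.

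**Figure D4:**
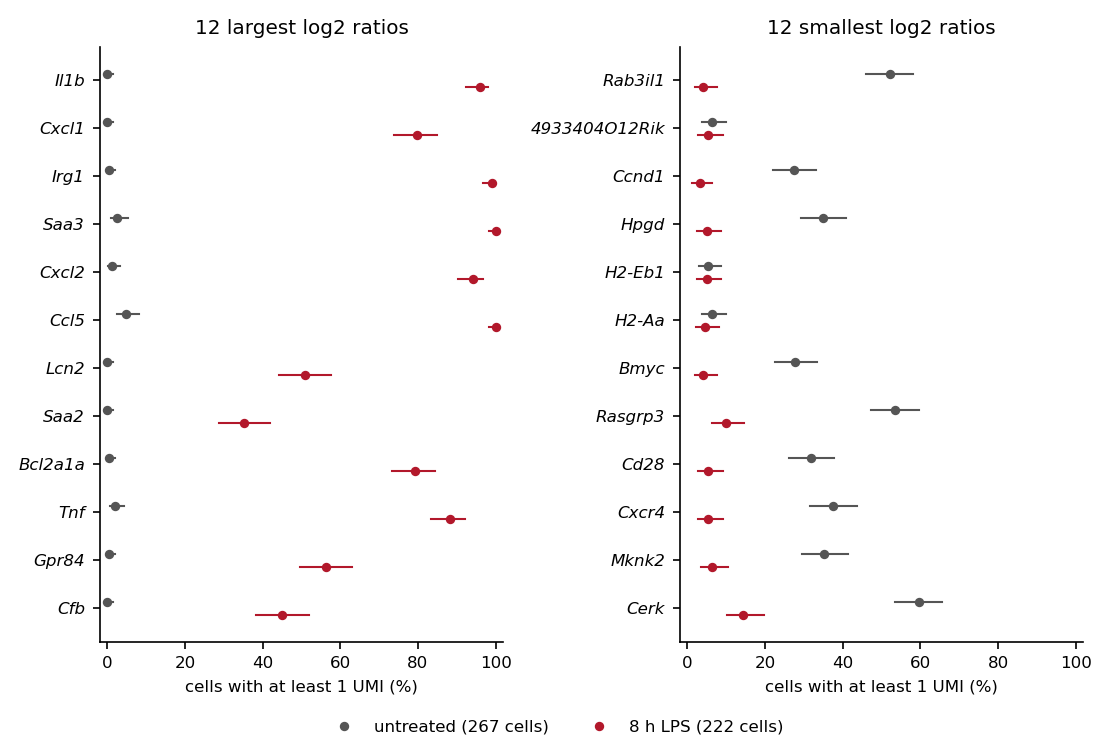
Percentage of Rad21-/- cells with at least 1 UMI, untreated (grey, 267 cells) and after 8 h of LPS (red, 222 cells), for the 12 genes with the largest and the 12 with the smallest log2 ratio, with 95% Clopper-Pearson intervals. Saa3 and Ccl5 were found in all 222 cells at 8 h, while the shares of H2-Eb1, H2-Aa and 4933404O12Rik overlap between the samples.

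The study took 6 classes of LPS-inducible genes from earlier work, A1+2 and B for primary and C to F for secondary response genes, and showed those in at least 20% of its cells, so these classes were partly chosen on the same cells and their direction is not independent evidence. The 239 genes of these classes with enough UMIs held 180 at least 2-fold higher and none lower (median log2 ratio 1.95). Class C had 59 of 63 higher (median 2.73), class D 33 of 43 (2.79) and class E 37 of 50 (2.39). Class F had 27 of 40 (1.48), class B 12 of 22 (1.13) and class A1+2 12 of 21 (1.07). Within every class the median share part was larger than the level part, from 1.09 and -0.014 in class B to 2.01 and 0.36 in class D, and class C had the largest level part (0.64). Of genes that the study followed by single-molecule RNA-FISH and not yet given, Peli1 had 0.89 (interval 0.31 to 1.53), Prdm1 0.17 (-0.37 to 0.73) and Sertad2 0.091 (-0.63 to 0.83), none past 2-fold.

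The same contrast in wild-type cells, which came from the same library pools with 238 untreated and 253 cells at 8 h, is given beside it to show where the responses differed. Over the 4823 genes with at least 100 UMIs in each genotype the median log2 ratio was 0.021 in Rad21-/- and -0.19 in wild-type cells. Across these genes, which are not independent replicates and share pools, Pearson's r of the log2 ratios was 0.864 and Spearman's rank coefficient 0.702. Of 401 genes higher in Rad21-/- cells 283 (70.6%) were also higher in wild-type cells, which is 76.3% of the 371 higher there. Of 205 genes lower in Rad21-/- cells 165 (80.5%) were lower in wild-type cells, which is 27.7% of the 595 lower there. Relative to each genotype's median the counts were 392 and 476 higher, with 311 shared, and 217 and 402 lower, of which the shared genes were 71.0% and 38.3%. The Rad21-/- cells therefore had fewer genes past 2-fold downwards under both scalings, and fewer upwards after centring only. With 1 sample per genotype and time these differences were not tested.

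Medians of lists in Rad21-/- and wild-type cells, each from its own untreated sample, lay close for CXC chemokines (6.97 and 6.90), NF-kappaB genes (2.24 and 2.21) and guanylate-binding proteins (2.84 and 3.10). The CXC median in Rad21-/- cells was 8.79 without the untreated pool 2330, 8.01 without 1 of the 8 h pools and 8.48 without the largest cell of each gene, and the wild-type median was not recomputed without them. The medians of antiviral interferon-stimulated genes were 2.35 and 1.72, but their summed levels were 1961 and 8816 CPM in Rad21-/- and 4634 and 20983 CPM in wild-type cells. CC chemokines had similar ratios (4.996 and 4.42) and levels at 8 h of 15362 and 36218 CPM. Further apart were MHC class II (-2.86 and 0.56), cholesterol genes (0.20 and -0.63), mitosis genes (-0.90 and -1.80) and acute-phase and complement genes (1.45 and -0.37). In Rad21-/- cells the median of the last list was the ratio of C5ar1, which had 41 and 120 UMIs and a ratio of -1.12 in wild-type cells. The summed level of this list was nonetheless higher at 8 h in both genotypes. It went from 4068 to 9565 CPM in Rad21-/- and from 4595 to 18440.4 CPM in wild-type cells. In cells with fewer than 10 class II UMIs, a cut that caps these levels, MHC class II went from 91.6 to 97.6 CPM in Rad21-/- cells. In wild-type cells under the same cut it went from 88.4 to 115.3 CPM. The mitosis median in Rad21-/- cells turned positive without 1 untreated pool, as given above. For cholesterol genes Hmgcs1 was at 0.93 and -0.43 and Cyp51 at 0.89 and -0.41. Adgre1 was at 1.49 and -0.036.

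The 6 genes whose ratio exceeded the wild-type one by most were Gpr84 (7.54 against 2.61), Mid1ip1 (0.46 against -2.47), Clec4e (7.19 against 4.17), Irg1 (10.22 against 7.23), BC048502 (6.004 against 3.04) and Cdk18 (-0.30 against -3.14). Gpr84 and Irg1 began from 1 UMI each in untreated Rad21-/- cells and from 12.5 and 18.7 CPM in untreated wild-type cells, and at 8 h Irg1 stood at 1449 and 2906 CPM in Rad21-/- and wild-type cells. Of the 6 that fell short by most, Ptgs2 had no untreated UMI in either genotype, so its ratios rest on the UMI added and are not compared. The others were AA467197 (2.36 against 6.46), which encodes the source transcript of miR-147, the metal-binding Mt2 (0.96 against 3.87), Hmgn3 (0.49 against 3.17), the focal adhesion gene Zyx (-1.30 against 1.38) and Il4ra, the IL-4 receptor chain (0.74 against 3.29). At 8 h AA467197 stood at 52.5 CPM in Rad21-/- and 364 CPM in wild-type cells, and Mt2 at 304 and 1698 CPM. Among the falls, Rab3il1 (-4.29 and -3.44), Hpgd (-3.69 and -3.21) and Txnip (-2.71 and -3.30) were low in both genotypes, while Ccnd1 was at -3.74 and -5.77.

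**Figure D5:**
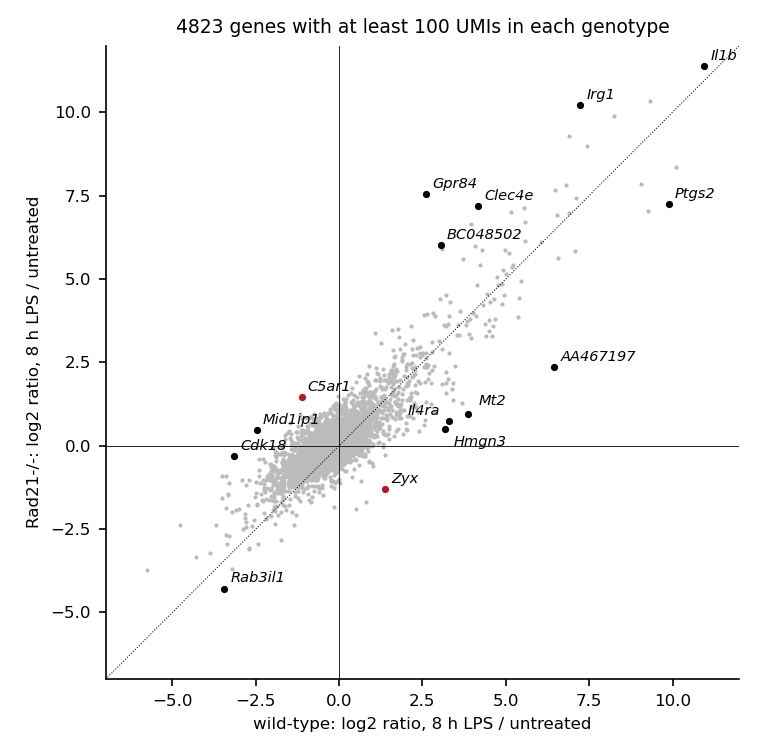
The log2 ratio of summed CPM, 8 h LPS over untreated, in Rad21-/- (vertical axis) against wild-type cells (horizontal axis) for the 4823 genes with at least 100 UMIs in each genotype, with the line of equality dotted. Gpr84, Clec4e, Irg1 and BC048502 lie above the line, AA467197 and Mt2 below it, and Zyx and C5ar1 (red) lie past 2-fold in opposite directions.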

How the data were processed

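Single macrophages were sorted into plates and profiled by MARS-seq in 6 samples, 1 per genotype and time point, of which 2 are compared here. Per the methods of the study, the authors assigned reads to cells by pool and cell barcodes, removed polyT sequence, mapped them with GEMTools (genome GRCm38.p4, annotation Gencode M8), and removed wells in which spike-ins exceeded 15% of reads or under 60% of reads mapped. They kept unambiguously mapped reads, collapsed UMIs within an edit distance of 2, and deposited raw UMI counts, not normalized, for each gene in each cell. The methods state that genes seen in under 5% of cells were removed, and in the matrix used here 5709 of 18429 genes fall under that limit. Cells were assigned to samples by their column names.

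Wells above 25000 UMIs were left out, 2 of 224 cells at 8 h and 3 of 270 untreated, which held 354217 and 173674 UMIs. UMIs were summed per sample and divided by the total, giving CPM. Genes with at least 100 UMIs over both samples were compared, with 1 UMI added to each sum, and called at 2-fold. Sums carry exact conditional Poisson intervals and shares Clopper-Pearson intervals (95%, counting error only), and a count of 0 was taken as at most 3 UMIs over the sample. Thinning drew 3900 UMIs per cell without replacement, a number that keeps 80% of the cells of both samples. Pools with under 10 cells were left out of pool ranges, which removed 2 pools at 8 h. Named genes were the 20 largest and 20 smallest log2 ratios, the 8 largest rises and falls in CPM, up to 4 members of each list with the largest absolute ratio, Rad21, the genes studied by RNA-FISH, and the 6 largest differences to wild-type cells in each direction. Other members of a list were named after their values were seen. Some genes that meet these rules are not reported here. Members, gene lists and rules were chosen with earlier results of these data known. The calculation was tested on simulated counts with set folds. Python 3.11.15, numpy 2.4.6, pandas 2.3.3, scipy 1.17.1 and matplotlib 3.10.9 were used. Promoter windows came from RefSeq for GRCm38.p6, a later patch of the same build. The alternatives were all wells, median-ratio size factors, means over cells, equal weight per pool, each pool left out, other limits on UMIs and folds, 5 UMIs added, and shares after thinning or at 2 UMIs. Leaving out the largest cell of each gene was added after the data were seen.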

Additional observations from a re-analysis of the deposited data

Results flagged for a closer look

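Zyx and C5ar1 were past 2-fold in opposite directions in the 2 genotypes, and with 1 sample per genotype and time that difference was not tested. Zyx, which encodes the focal adhesion protein zyxin, went from 124.4 to 50.2 CPM in Rad21-/- cells (log2 ratio -1.30) and from 83.03 to 217 CPM in wild-type cells (1.38). It was found in 41.2% to 25.2% of Rad21-/- and 35.7% to 52.6% of wild-type cells. The Rad21-/- pools ran from 87.3 to 159.9 CPM untreated and from 28.1 to 144 CPM at 8 h, so they overlapped. C5ar1, the receptor for the complement fragment C5a, went from 24.9 to 69.2 CPM in Rad21-/- cells (1.45) and from 176 to 80.3 CPM in wild-type cells (-1.12), that is from 12.7% to 37.4% and from 55.5% to 31.2% of cells. Its Rad21-/- pools ran from 11.3 to 41.3 CPM untreated and from 38.5 to 98.8 CPM at 8 h, which also overlapped.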

How the results depend on the processing

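With 1 sample per group there was no replicate to leave out, and the values below are counts and ratios without a test. No paired analysis was possible because each genotype and time point was 1 sample. The count of genes at least 2-fold higher or lower (442 and 291) was 756 and 777 with a limit of 30 UMIs, 1251 and 1462 with 10 UMIs, and 187 and 75 with 300 UMIs. At 4-fold it was 174 and 46. The 565 genes with a share at least 20 points higher were 276 after thinning and 339 when 2 UMIs were required, and the 85 lower genes were 26 when 2 UMIs were required. For the lower genes the share part was -1.14 and the level part -0.23 after thinning. Leaving out each of 16 pools gave 385 to 443 higher and 220 to 288 lower genes. The counts stayed within 1.5 times under all wells kept (531 and 275), median-ratio size factors (441 and 294), means over cells (446 and 285), equal weight per pool (477 and 297), 5 UMIs added (418 and 255) and the largest cell of each gene left out (451 and 297).

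Of 151 named genes all but 43 were past 2-fold, and none of those past it changed sign under 25 alternatives. Some of the 43 short of 2-fold, among them Stag2, Slbp and Ifnar2, did change sign. Lipa, Npc1, Egr2 and 4933404O12Rik fell below 2-fold under at least 1 alternative. Egr2 had fewer than 100 UMIs and was not among the genes compared, so its ratio rests on the UMI added. Adding 5 UMIs moved 25 named genes by over 1.5 times, most of them with few or no untreated UMIs. Leaving out a single pool moved 20, and among these Cxcl10 had 8.79 and Cd74 -1.06 without the untreated pool 2330, Cxcl3 7.16 and Slc7a2 6.56 without the untreated pool 2326, and Gpr84 8.46 without the untreated pool 2325. Of 36 list medians 20 were past 2-fold, and LPS recognition alone fell below it, with all wells kept (0.73, over 10 instead of 9 genes). Leaving out a single pool moved 5 of these medians by over 1.5 times, those of CXC chemokines, guanylate-binding proteins, arginine and itaconate genes, MHC class II and co-stimulatory molecules (4.23 without 1 of the 8 h pools). The limit of 100 UMIs was applied anew with all wells kept and with each pool left out. Counts and medians under these settings therefore partly reflect a changed set of genes. Among the other medians, those of mitosis, glycolysis, cohesin and macrophage genes changed sign without at least 1 pool. The depth limits genes under 100 UMIs, for which most list members of replication and mitosis could not be compared.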
